A study of Bos taurus with 22 samples.

Results

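The genes described here encode the proteins of the cytosolic ribosome. They were chosen by the spelling of the gene symbol in the annotation of the array: a single symbol that begins with RPL or RPS and a digit, or that reads RPSA, RPLP0, RPLP1 or RPLP2, with the RPS6K kinases left out. The rule found 69 genes with 98 probe sets, among 9155 genes with a single symbol and 13292 probe sets that carry one. Of the 69 genes, 39 encode proteins of the large subunit and 24 proteins of the small subunit. The other 6 that the spelling brought in are the paralogs RPL3L, RPL7L1, RPL26L1 and RPS27L, the annotated pseudogene RPL15P, and RPS19BP1, which is a protein that binds RPS19 and no part of the ribosome. A total of 50 genes had 1 probe set and 19 had several.

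The cytosolic ribosome translates the messenger RNA of the cell nucleus, and most of its proteins are made in nearly equal numbers, since apart from the stalk proteins each has a single place in the particle. Their messenger RNAs are among the most abundant in most tissues and carry a terminal oligopyrimidine tract at the 5 prime end, through which mTOR signalling adjusts their translation more than their amount. In adipose tissue insulin acts on the same pathway, and several of these transcripts, among them RPS9 and RPS15A, serve as reference genes in expression studies of cattle. Ribosomal protein genes have many processed pseudogenes in mammalian genomes, so the short probes of an array can detect more than 1 locus, and the assignment of a probe set to its gene is uncertain to that degree.

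Subcutaneous white adipose tissue from a dorsal site was taken from 11 Holstein heifers at their first calving, once 30 days before and once 14 days after it, and total RNA was hybridised to 22 Affymetrix bovine arrays. The prepartum and the postpartum group held 11 arrays each, and each cow was its own control. All heifers were raised on 1 farm on 1 diet, calved at 24 to 28 months of age and within 60 days of each other, and received no dietary treatment. Before calving they ate a forage-based diet with some concentrate ad libitum, and the diet after calving is not used here. Calving, onset of lactation and any change of diet therefore moved together and cannot be told apart.

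Values are MAS5 signal intensities, and changes are differences of log2(signal + 7.78), postpartum minus prepartum. The signal of a probe set depends on its probes as well as on the transcript, so no level is compared between genes. Of 17 adipocyte markers on the array, all were kept by the filter. Their summed signal ran from 28720 to 52560 prepartum and from 14840 to 45020 postpartum. Of these 17 markers 5 were called lower postpartum, against 3.71% of all 6984 genes called in either direction. Some arrays stood apart in markers of other tissues. The summed signal of 17 kept skeletal muscle markers, of 21 on the array, had a median of 2898 prepartum and 3330 postpartum but reached 73840 in the prepartum array of cow 387 and 126700 in the postpartum array of cow 384. Of 8 epidermal markers on the array, 2 were kept, and their summed signal reached 6188 prepartum, against at most 287.9 postpartum. No kept marker of these lists was at 0 on any array. In such bulk tissue, fewer cells of a type and less RNA per cell cannot be told apart.

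After the filter on dim probe sets, 89 of the 98 probe sets and 66 of the 69 genes were tested. The 9 that were too dim included the only probe sets of RPL37, RPL3L and RPS19 (2), and the weakest probe sets of RPL7, RPS4Y1, RPS7, RPS12 and RPS27L. Most of the tested probe sets were bright: 69 had a mean signal above the 95th percentile of the array, and together the 98 probe sets, 0.408% of all, made up 7.16% ± 0.62 (SD, n = 11) of the summed signal prepartum and 7.55% ± 0.69 (SD, n = 11) postpartum.

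The ribosomal protein transcripts differed little between late pregnancy and early lactation. With limma's test adjusted over all 14410 probe sets, 1 of 89 was called higher postpartum and 0 were called lower, which is 1.12% of the probe sets of these genes, against 3.43% of all probe sets called in either direction, 1.44% higher and 1.98% lower. With 1 probe set a gene, 0 of 66 genes passed the same test, against 3.71% of 6984 genes. At an unadjusted p under 0.05, 7 of 89 probe sets passed, 4 higher and 3 lower, which is 7.87% against 19.8% of all. This last count depended on the normalization. After cyclic loess normalization between arrays 36 of 89 probe sets had an unadjusted p under 0.05, 33 higher and 3 lower, which is 40.4% against 20.8% of all, the median change was 0.13, and 1 probe set passed the adjusted test. With the scaling as deposited, the median log2 change was 0.08 against 0.01 for all probe sets, and single changes ran from -0.37 to 0.39.

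The changes were also bounded closely. The 95% interval of the change lay within 0.5 log2 units of 0 for 83 of 89 probe sets, which is 93.3% against 71.4% of all probe sets tested, and it lay within 1 log2 unit for all 89. The most extreme bounds were -0.69 for a probe set of RPS7 and 0.60 for a probe set of RPL32. The SD of the change over the 11 cows had a median of 0.31 against 0.39 for all, and the standard error a median of 0.09 against 0.12. Part of this gap goes with brightness, since the SD was 0.30 for the bright probe sets of these genes and 0.35 for all bright ones. By 1 probe set a gene the median SD was 0.30. It was 0.26 for translation factors, 0.29 for ribosome biogenesis and 0.32 for mitochondrial ribosomal proteins, so close bounds were not particular to these genes.

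**Figure D1:**
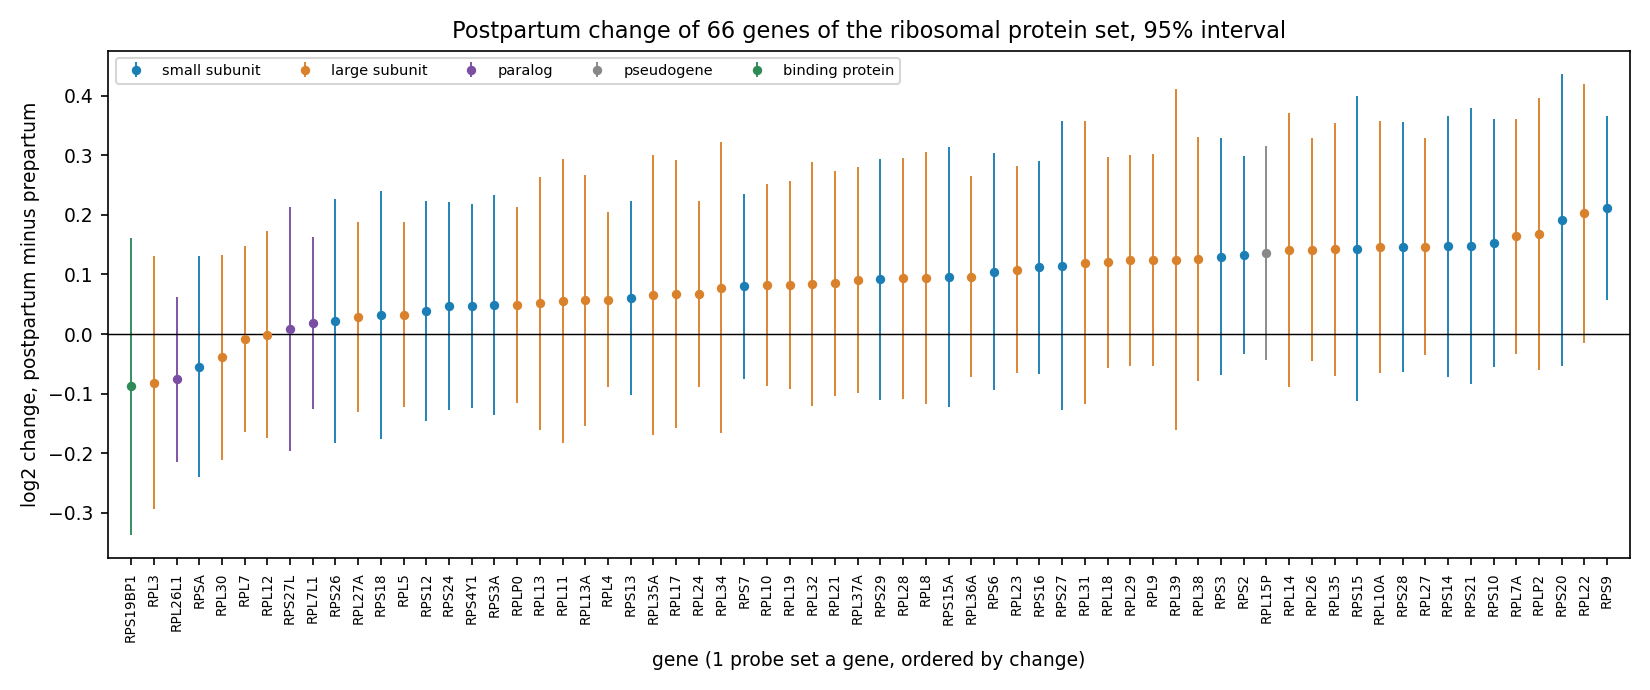
Log2 change (postpartum minus prepartum) of the 66 tested genes, each by its brightest probe set, ordered by the change. Points are the limma estimates over 11 cows, bars their 95% intervals, and colours mark the small subunit, the large subunit, paralogs, the pseudogene and the binding protein. The estimates run from -0.09 (RPS19BP1) to 0.21 (RPS9), 59 are above 0, and none passed the adjusted threshold.

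Among the genes of the small subunit, RPS9 had the highest estimate. It is a core protein of the subunit that helps to keep decoding accurate. Its signal ran from 1482 over a median of 1972 to 2529 prepartum and from 1939 over 2263 to 2864 postpartum. The ranges overlapped, although 10 of 11 cows were higher postpartum and cow 338 was lower. The log2 change was 0.21 (95% interval 0.06 to 0.37, limma adjusted p = 0.12), a 1.16-fold difference that did not pass.

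RPS20, a protein of the head of the small subunit, ran from 2287 over 3634 to 4400 prepartum and from 3207 over 3849 to 5074 postpartum. The lowest prepartum and the highest postpartum value both belonged to cow 341, and the groups otherwise overlapped almost fully. Its log2 change of 0.19 (95% interval -0.05 to 0.44) did not pass, with 7 of 11 cows higher. RPS10, RPS14 and RPS21, which lie in the head, the platform and the body of the small subunit, had changes of 0.15, 0.15 and 0.15, with 6, 6 and 7 of 11 cows higher.

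RPS6 is the protein that S6 kinase phosphorylates downstream of mTOR. Its signal ran from 4655 over 5319 to 6288 prepartum and from 4368 over 5864 to 7142 postpartum, with 6 of 11 cows higher. In 6 cows (330, 331, 338, 346, 347 and 360) its change lay within 0.05 log2 units of 0, while it was 0.56 in cow 341 and -0.52 in cow 384. The mean change of 0.10 (95% interval -0.09 to 0.30, limma adjusted p = 0.577) rested on the other 5 cows.

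RPSA, which also serves as a laminin receptor at the cell surface, had a change of -0.05 (95% interval -0.24 to 0.13), with 5 of 11 cows higher. Its lowest signal by far was 3164 in the postpartum array of cow 384, where it had been 5202 prepartum. RPS18, often used as a reference transcript, had a change of 0.03 (95% interval -0.18 to 0.24), and RPS27, a zinc finger protein of the subunit, one of 0.11. None of the 23 tested small-subunit genes passed by its brightest probe set.

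Among the genes of the large subunit, RPL22 had the highest estimate by its brightest probe set. It binds structured RNA and is also known for its role in lymphocyte development. Its signal ran from 2333 over 4270 to 5258 prepartum and from 3844 over 4713 to 5515 postpartum. The lowest prepartum value, 2333, was that of cow 341, and the next was 3362. The log2 change was 0.20 (95% interval -0.02 to 0.42, limma adjusted p = 0.29), with 7 of 11 cows higher.

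RPLP2 and RPLP0 form part of the stalk that draws translation factors to the ribosome. RPLP2 ran from 3455 over 4932 to 6202 prepartum and from 3968 over 5317 to 6298 postpartum, with a change of 0.17 (95% interval -0.06 to 0.40) and 7 of 11 cows higher. RPLP0 had a change of 0.05 (95% interval -0.12 to 0.21) by its brightest probe set, and 4 of 11 cows were higher. RPL7A, another protein of the large subunit, had a change of 0.16 (95% interval -0.03 to 0.36).

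RPL5 and RPL11 bind the 5S ribosomal RNA and, when free, the p53 regulator MDM2. Their changes were 0.03 (95% interval -0.12 to 0.19) and 0.06 (95% interval -0.18 to 0.29). RPL10, which joins the subunit in the last steps of assembly, had 2 probe sets with changes of 0.08 and 0.11. RPL36A had a change of 0.10 (95% interval -0.07 to 0.27). RPL38, known from mouse embryos for its effect on the translation of selected messenger RNAs, had a change of 0.13, and RPL13A, a part of the interferon-induced translation silencing complex, one of 0.06. None of these passed.

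RPL39, which lines the exit tunnel for the nascent chain, showed how far 1 cow could reach. Its signal was 2782 in the prepartum array of cow 341 and 7485 in its postpartum array, the lowest and the highest of all 22. In the other 10 cows the signal lay between 4171 and 7031. Its SD of change was 0.49, against a median of 0.31 for these probe sets, and its mean change of 0.12 had an interval from -0.16 to 0.41.

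The lowest estimates by the brightest probe set were small. RPL3, which reaches toward the peptidyl transferase centre, had a change of -0.08 (95% interval -0.29 to 0.13), RPL30 one of -0.04, RPL7 one of -0.01 and RPL12 one of -0.0014. RPS19BP1, the binding protein, had -0.09 (95% interval -0.34 to 0.16) and the paralog RPL26L1 -0.08 (95% interval -0.21 to 0.06). Other reference genes lay close by, with RPL19 at 0.08 and RPS15A at 0.10, each inside an interval that covered 0.

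The 2 subunits gave much the same summary values, which were not tested against each other. Bright small-subunit probe sets had a median change of 0.10, with 22 of 24 above 0, and bright large-subunit probe sets one of 0.08, with 36 of 41 above 0. Among all 69 bright probe sets 60 had a positive change and the median was 0.09, whereas the 1201 probe sets of the whole array above the same brightness had a median of -0.03, 43.2% above 0 and 5.58% called. Of the bright ribosomal protein probe sets 0 were called with limma. The 20 dimmer ones had a median of -0.05, with 8 above 0 and 1 called.

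The dimmer probe sets were mostly further probe sets of genes that also had a bright one. The letter in the probe set name, which separates A from S designs, was A for 13 of the 20 dimmer and for 1 of the 69 bright ones. Where probe sets of a gene disagree, the array cannot tell transcript variants, other loci and poor probes apart.

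The probe set that passed belonged to RPL32, a large-subunit protein whose transcript is often used as a reference. It was dimmer than the brightest probe set of the gene and ran from 101 over 129 to 162 prepartum and from 138 over 149 to 218 postpartum. The ranges overlapped between 138 and 162, 10 of 11 cows were higher postpartum, and cow 384 was lower, at 161.7 prepartum and 145.6 postpartum. The log2 change was 0.39 (95% interval 0.19 to 0.60, limma adjusted p = 0.0385), a 1.31-fold difference.

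The other probe sets of RPL32 did not show it. The brightest ran from 3151 over 3934 to 4777 prepartum and from 3485 over 4248 to 5236 postpartum, with a change of 0.08 (95% interval -0.12 to 0.29) and 5 of 11 cows higher. The dimmest ran from 34.1 over 57.9 to 73.8 and from 39.7 over 56.2 to 89.9, with a change of -0.02 (95% interval -0.33 to 0.29). The call of the RPL32 probe set was lost without any single cow other than 384 or 387, without the filter on dim probe sets (adjusted p = 0.0573) and in each array set alone, where the change was 0.62 in array set 1 and 0.21 in array set 2.

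**Figure D2:**
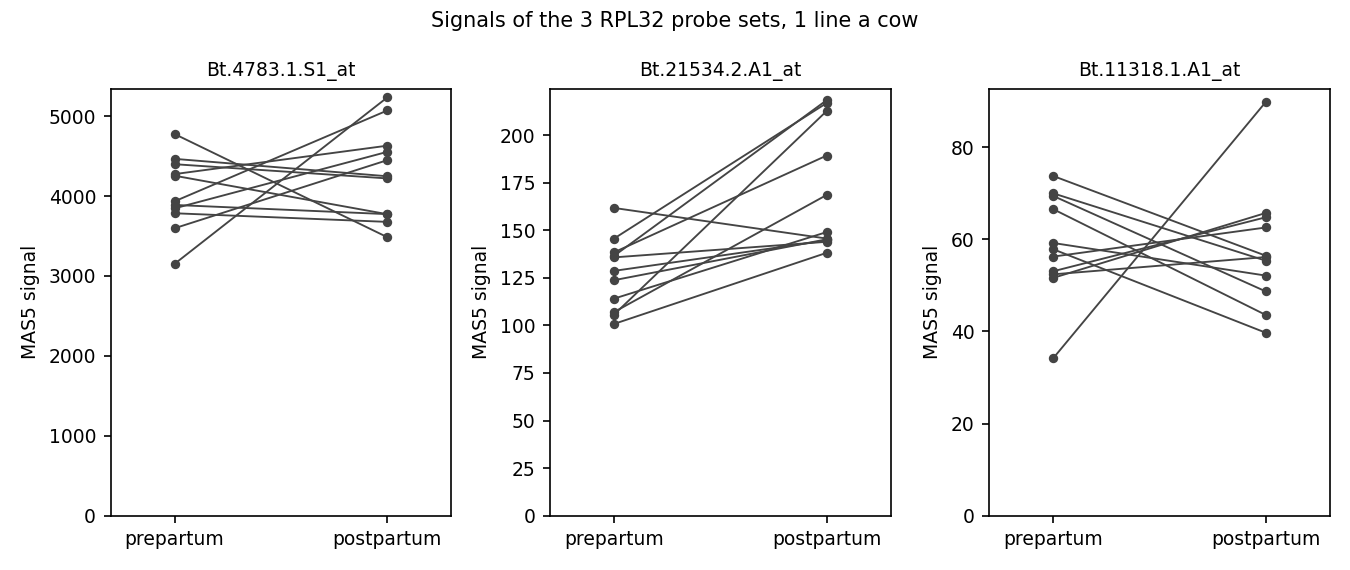
MAS5 signal (linear axis from 0) of the 3 probe sets of RPL32 before and after calving, with 1 line for each of the 11 cows. In the middle panel, the probe set that passed, 10 of 11 lines go up, while in the left and the right panel 5 of 11 do in each, and the 3 panels have different signal ranges.

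The 6 other probe sets with an unadjusted p under 0.05 did not pass the adjusted test, and those of RPS3, RPS7, RPL15P and RPL24 and the second one of RPS15A were picked out after their values were seen. RPS15A, a small-subunit protein, had a dim second probe set, from 52.3 over 65.6 to 85.2 prepartum and from 61.3 over 80.6 to 100.5 postpartum, with a change of 0.27 (limma adjusted p = 0.0946) and 10 of 11 cows higher. Its bright probe set ran from 4105 over 5630 to 6827 prepartum and from 4964 over 5996 to 7897 postpartum, with a change of 0.10 and 4 of 11 cows higher. The pair thus gave different counts of cows for 1 gene.

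RPL24, which bridges the subunits, had a probe set that was lower postpartum in 11 of 11 cows. Its signal ran from 1814 over 2246 to 3094 prepartum and from 1043 over 2026 to 2401 postpartum. Cow 384 went from the highest value of its group to the lowest, a change of -1.56, and the mean of -0.28 (95% interval -0.54 to -0.02) had an adjusted p of 0.223 with limma. The other, brighter RPL24 probe set had a change of 0.07 with 7 of 11 cows higher.

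RPS7 and RPL15P showed the same kind of split. RPS7, needed for early maturation of the small subunit, had -0.37 (limma adjusted p = 0.181) in its dim tested probe set and 0.08 in the bright one. The pseudogene entry RPL15P had 3 probe sets, with -0.36 (limma adjusted p = 0.137) in the dimmest, -0.06 in the next and 0.14 in the brightest. RPS3, which also takes part in DNA repair, had 0.22 (limma adjusted p = 0.188) in a probe set of middle brightness, with 0.13 in its brightest and 0.04 in its dimmest.

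RPS4Y1 carries a symbol that in other mammals belongs to a gene on the Y chromosome, but the RefSeq gene table places it on an autosome in cattle. All animals here were female, and its brightest probe set had a signal of 5486 to 8326, with a change of 0.05 (95% interval -0.12 to 0.22). Another bright RPS4Y1 probe set had a change of -0.13 (95% interval -0.33 to 0.07), with 6 of 11 cows lower. RPL7L1, a paralog of RPL7 with a role in ribosome assembly, had changes of 0.02, -0.06 and -0.20 in its 3 probe sets.

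The average over cows combined large and opposite changes of single cows. For the 63 genes with a bright probe set, the median change was 0.68 in cow 341, 0.33 in cow 382, 0.26 in cow 387 and 0.24 in cow 386. It was -0.23 in cow 384 and -0.15 in cow 338, and between -0.07 and 0.00 in the 5 remaining cows. So 4 of 11 cows had a positive median, the median over cows was -0.03, and the mean was 0.09 (SD 0.26, n = 11).

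In several cows nearly all genes went the same way. Of the 63 genes, 61 were higher postpartum in cow 341, 62 in cow 382, 61 in cow 387 and 58 in cow 386, against 4 in cow 338 and 11 in cow 384. In cow 330 they were divided, with 31 higher and 32 lower. Over the 11 cows, the changes of a pair of genes correlated with a median Pearson r of 0.85, and the first principal component held 83.1% of the variance of the changes. Without cows 341 and 382, left out after their values were seen, the median r was 0.70 and the component held 68.0%. All these points share their arrays and the scaling of each array, so the correlation is a description of these libraries.

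**Figure D3:**
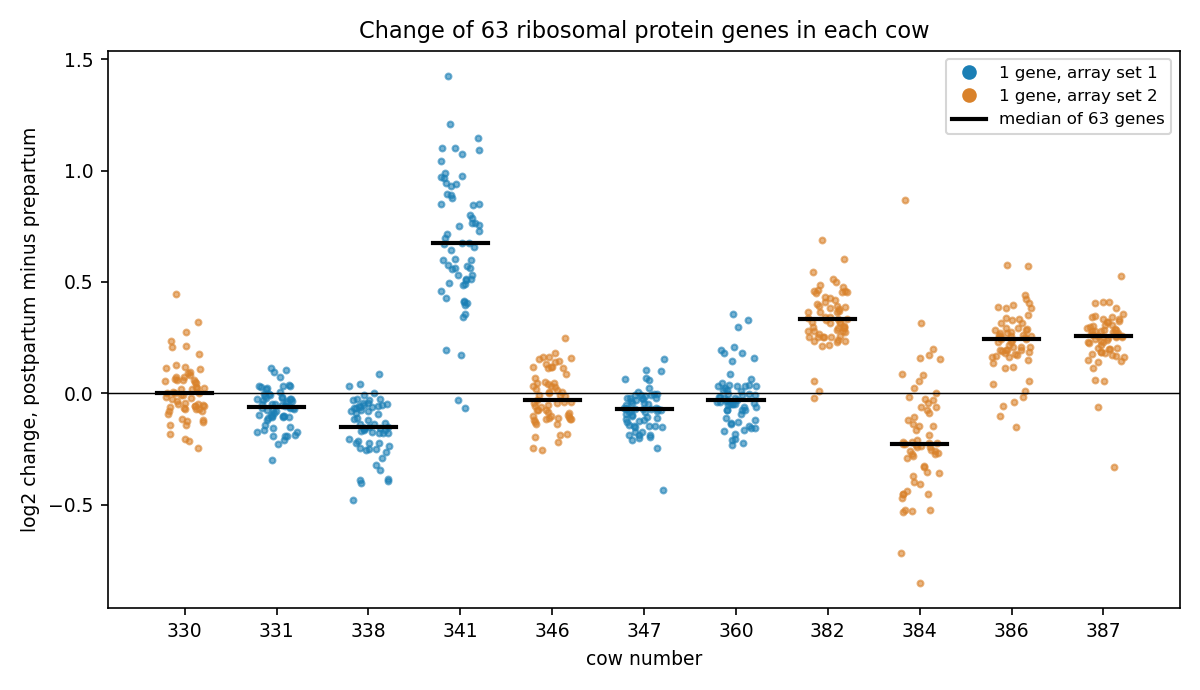
Log2 change (postpartum minus prepartum) of 63 ribosomal protein genes with a bright probe set in each of the 11 cows, with 1 point for each gene, spread sideways at random, and a black line at the cow's median. Colours mark the array set of the cow. Cow 341 has a median of 0.68, cow 384 one of -0.23, and in cows 341, 382, 386 and 387 nearly all points lie above 0.

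The mean difference depended on the cows with large positive changes. Cows 341 and 382 were left out after their values were seen, as those with the largest changes, so a lower average was built into the choice. Cow 382, at a median of 0.33 for genes with a bright probe set, was close to cows 387 (0.26) and 386 (0.24). Without cows 341 and 382, the median change of the 89 probe sets was -0.01 and 46.1% were above 0. With all cows these values were 0.08 and 76.4%, and without cow 341 alone the median change was 0.02. The arrays of cow 341 were the extremes of the study: the ribosomal protein probe sets made up 5.84% of the summed signal in its prepartum array, the lowest of 22, and 8.69% in its postpartum array, the highest. RPS15, a small-subunit protein near the decoding site, had 3040 and 7048 in these arrays and 4298 to 6923 in the other 20.

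The change in a cow moved with 1 of 2 signs of RNA quality on the same arrays. The control probe sets for GAPDH give the ratio of the signal at the 3 prime end to that at the 5 prime end of its transcript, which increases when the RNA is more degraded or the labelled product shorter. Its log2 value changed by 0.69 in cow 341, 0.33 in cow 387, 0.21 in cow 382, 0.02 in cows 386 and 330, and between -0.33 (cow 384) and -0.07 in the other 6. Over the 11 cows the median change of the 63 genes correlated with the change of the ratio with a Pearson r of 0.94 and a Spearman rho of 0.87. Without cows 341 and 387, whose ratio changes lay farthest from the median of the 11, r was 0.86 over 9 cows. Within array set 2 r was 0.89 and rho 0.94 over 6 cows, and the 5 cows of array set 1 are too few for a value. Apart from cow 341, array set 1 did not follow the relation. In its cows 338, 331, 347 and 360 the ratio changed by -0.07, -0.13, -0.14 and -0.20. The median of the 63 genes changed there by -0.15, -0.06, -0.07 and -0.03, so a larger fall of the ratio did not go with a larger fall of the genes.

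The same ratio for actin, the other such control, followed the ribosomal protein genes less closely. Its log2 value changed by 1.31 in cow 341 and 2.50 in cow 387, but by -1.71 in cow 382 and -1.99 in cow 386, whose ribosomal protein medians were 0.33 and 0.24. Over the 11 cows r was 0.43 and rho 0.35, r was 0.30 without cows 338 and 387, the farthest from the median, and within array set 2 it was 0.20.

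Other gene groups were set against the GAPDH ratio in the same way. The median change of 67 mitochondrial ribosomal protein genes had an r of -0.32 with the change of this ratio, and that of 32 proteasome genes one of -0.40. By rank, rho was only -0.06 and -0.03 over the 11 cows. Without cows 341 and 387 r was -0.57 and -0.62. Within array set 2 r was -0.83 and -0.77 over 6 cows, and rho -0.77 and -0.26. Cow 384 stood apart from the other cows in both groups, with medians of 0.35 and 0.76. For 24 translation factor genes r was 0.72 and rho 0.44 over 11 cows, and r was 0.11 without cows 341 and 387. The median r of single probe sets with the GAPDH ratio was 0.87 for the 69 bright ribosomal protein probe sets, with 68 of 69 positive. It was 0.31 for all bright probe sets and 0.08 for all tested. With the GAPDH ratio as a covariate in the limma fit, added after the data were seen, the median change was 0.05 and 1 of 89 probe sets passed. The part of RNA quality in the result was not tested.

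**Figure D4:**
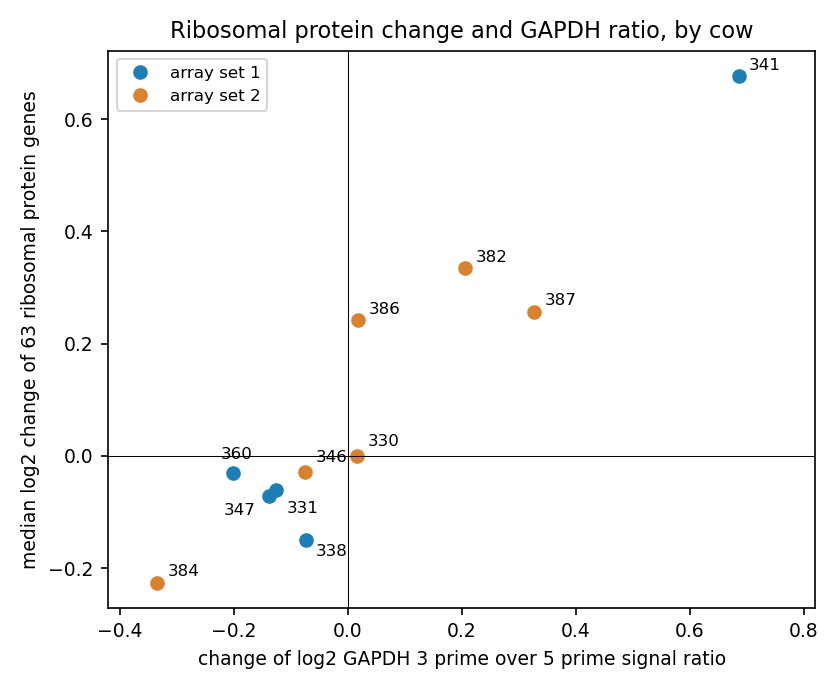
Median log2 change of 63 ribosomal protein genes in each cow (vertical axis) against the change of the log2 ratio of GAPDH signal at the 3 prime and 5 prime ends (horizontal axis), postpartum minus prepartum, with 1 labelled point for each cow and colours for the array set. Cow 341 lies at 0.69 and 0.68 at the top right, cow 384 at -0.33 and -0.23 at the bottom left, and Pearson r is 0.94 over 11 cows.

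Markers of epidermis, of which 2 were kept, moved in some of the same cows. Their r with the ribosomal protein median was -0.73 over 11 cows, and -0.12 without cows 341 and 382. The mean change was -1.77 for KRT10 and -0.02 for KRT5, the 2 kept markers, and their single r values were -0.76 and 0.14. Their median change was -3.17 in cow 341 and -2.47 in cow 382, the cows with the largest ribosomal protein changes, but also -1.71 in cow 330 and -1.48 in cow 331, whose ribosomal protein medians were 0.00 and -0.06. Without these 4 cows the median change of the 89 probe sets was -0.0022, and 0 passed limma's test (2 at an unadjusted p under 0.05). Skeletal muscle markers moved by 5.43 in cow 384, 4.33 in cow 386 and -7.44 in cow 387, with ribosomal protein medians of -0.23, 0.24 and 0.26. Without cows 384 and 387 the median was 0.10.

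Markers of cells that belong to adipose tissue also moved with the ribosomal protein genes in part. All 14 fibroblast and progenitor markers were kept, with a summed signal of 32930 to 44420 prepartum and 22770 to 47470 postpartum. Their median changed by 0.25 in cow 341, 0.28 in cow 382, 0.20 in cow 387 and 0.10 in cow 386, by -0.71 in cow 384, and by -0.37 to 0.05 in the others. It correlated with the ribosomal protein median with an r of 0.73 over 11 cows, 0.86 without cows 330 and 384, and 0.92 within array set 2. Endothelial markers had an r of 0.54, one of 0.37 without cows 346 and 384, and one of 0.89 within array set 2. Adipocyte markers changed by -1.42 in cow 341 and -1.28 in cow 382, but by -2.14 in cow 384 and 0.60 in cow 387. Their r was -0.05 over 11 cows, -0.02 without cows 341 and 384, and 0.56 within array set 2. Macrophage and monocyte markers had an r of 0.46, and lymphocyte and neutrophil markers -0.03 and 0.03. Single genes of a list went different ways. Their r ran from -0.37 (THY1) to 0.80 (DCN) among fibroblast and progenitor markers. It ran from -0.70 (VWF) to 0.62 (ENG) among endothelial and from -0.65 (GPD1) to 0.88 (FABP4) among adipocyte markers. The part of any of these cell types or tissues in the result was not tested.

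RPL3L was high on 3 arrays and dim on the rest. Its protein takes the place of RPL3 in the ribosomes of skeletal and heart muscle. Its signal was 1062 in the postpartum array of cow 384, 341 in the prepartum array of cow 387 and 43.9 in the postpartum array of cow 386. In the other 19 arrays it lay between 2.46 and 22.4, which put its mean below the filter, so it was not tested. The 3 high arrays were those with the highest muscle markers, at median deviations of 8.09, 7.42 and 4.32 log2 units, and the prepartum array of cow 384, with a deviation of 2.66, had a signal of 22.1.

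RPL3, which RPL3L replaces, was at 2928 in the postpartum array of cow 384, the lowest of 22, after 5284 prepartum. This was not particular to RPL3. The same array was also the lowest for RPS6 (4368), RPL12 (2740) and RPSA (3164), and 52 of the 63 genes with a bright probe set were lower postpartum in cow 384. In the prepartum array of cow 387 RPL3 was at 4151, inside the range of the other arrays. RPS27L, a p53-responsive paralog of RPS27, was at 2063 in the postpartum array of cow 384 and at 1300 in the prepartum array of cow 387, its highest signals, against 860.5 to 1193 in the other 20 arrays. Its mean change over cows was 0.01 (95% interval -0.20 to 0.21).

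**Figure D5:**
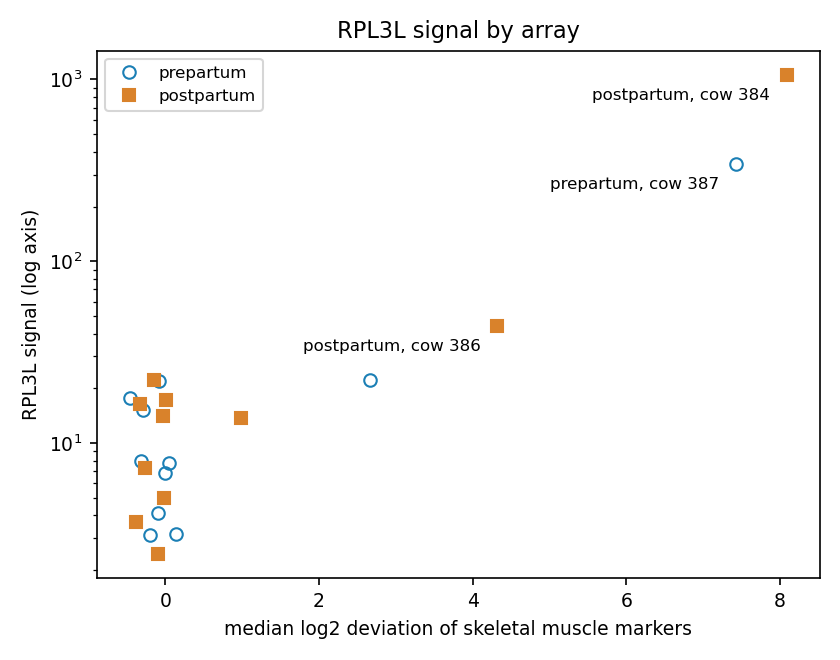
MAS5 signal of RPL3L (vertical log axis) in each of the 22 arrays against the median log2 deviation of the kept skeletal muscle markers from their medians over arrays (horizontal axis), with circles for prepartum and squares for postpartum arrays. The 3 arrays above a signal of 40 are labelled and have the 3 highest muscle deviations, and the other 19 lie between 2.46 and 22.4.

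The titles of the arrays end in 1 of 2 codes of unstated meaning, by which 5 cows form array set 1 and 6 cows array set 2. The postpartum change of the 63 genes averaged 0.07 (SD 0.34, n = 5) in array set 1 and 0.10 (SD 0.22, n = 6) in array set 2. The cow median was positive in 1 of 5 cows of array set 1, cow 341 at 0.68, and in 3 of 6 cows of array set 2. Tested as an interaction in limma, the difference of the change between the sets passed for 0 of 89 probe sets, against 0.0% of 14410, and 4 of 89 had an unadjusted p under 0.05 (4.49% against 3.58% of all). The lowest was that of 1 of the 3 tested RPS12 probe sets, at p = 0.0169 and an adjusted p of 0.997 in the limma fit.

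Levels differed between the sets for a few probe sets. The mean level of each cow separated the 2 sets without overlap for 5 of 89 probe sets, against 10.4% of all. That RPS12 probe set ran from 284.8 to 418.7 in array set 1 and from 129.1 to 253.8 in array set 2, with mean log2 levels of 8.51 and 7.50, so that even single arrays did not overlap. Cow means of RPS9 and of the dimmest RPL15P probe set were also higher in array set 1, and those of RPS28 and of the dim RPS7 probe set in array set 2. The set and the cows in it cannot be told apart.

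After removal of the group means, the share of the variance of a probe set that lay between cows had a median of -0.12 for the 89 probe sets and 0.19 for all probe sets, where a value near or below 0 means that the level in 1 array of a cow told little of the level in the other. Across the bright probe sets, by contrast, the pattern of the 2 arrays of a cow correlated with an r of 0.05 to 0.70 in 10 cows and of -0.11 in cow 341.

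Other parts of the translation machinery were measured on the same arrays. The counts called in these lists stand beside 3.71% of all 6984 genes called in either direction, and no list was tested as a whole. Of 24 translation factor genes, many of which share the terminal oligopyrimidine tract, 2 rose and 0 fell, and the median change was 0.15. EIF4B, which stimulates the helicase that unwinds the start of messenger RNAs, rose with a log2 change of 0.50 (SE 0.07, limma adjusted p = 0.00256) in 11 of 11 cows, from a median signal of 726.6 to 969.8. EIF4A2, a paralog of that helicase, rose with a log2 change of 0.41 (SE 0.10, limma adjusted p = 0.0329) in 10 of 11 cows, from 2199 to 2925.

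Over the 11 cows, their changes correlated with the median change of the ribosomal protein genes with r of 0.47 for EIF4B and -0.47 for EIF4A2. EEF1A1, which delivers transfer RNA to the ribosome, had a change of 0.03 and an r of 0.92. Genes outside the symbol rule for proteins of the ribosome or bound to it, FAU, RACK1 and SERBP1, had changes of 0.04, 0.13 and 0.07, and none passed.

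Genes that build the ribosome were mixed. Of 40 tested, 1 rose and 2 fell, with a median of -0.03. SBDS, which frees the large subunit for joining, fell by 0.90 log2 units (SE 0.18, limma adjusted p = 0.0165), lower in 10 of 11 cows. NOP16, a nucleolar protein of large-subunit assembly, fell by 0.38 (SE 0.08, limma adjusted p = 0.0147) in 11 of 11 cows, and POLR1D, a subunit of RNA polymerases I and III, rose with a change of 0.59 (SE 0.14, limma adjusted p = 0.0364) in 10 of 11.

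Of 35 genes of mTOR signalling and cap-dependent control 0 passed limma's test, and the median was -0.02. RRAGD, a Rag GTPase, had the largest change, 0.71 (SE 0.31, limma adjusted p = 0.211), and SESN1, a sestrin that restrains mTOR, had 0.46 (SE 0.19, limma adjusted p = 0.196). Of 67 mitochondrial ribosomal protein genes 1 rose, MRPS6 with a change of 0.52 (SE 0.12, limma adjusted p = 0.0276), and the median was -0.01. Of 32 proteasome genes 0 passed, and the median was -0.04, with the largest change in PSMD14 (-0.31, SE 0.09, limma adjusted p = 0.0729).

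The genes whose change over the 11 cows was most like the median of the ribosomal protein genes were ranked by Pearson r among 6911 other genes. The highest were POMC at 0.95, EIF3D at 0.93, EEF1A1 and RACK1 at 0.92, SNRPD2, CD63, TMA7 and POP7 at 0.91, CDK5R1 at 0.90 and SSR2 at 0.89. Without cows 341 and 382 these ran from 0.69 (CDK5R1) to 0.94 (RACK1). The names are those of the array annotation. The probe sets annotated POMC, a pituitary hormone precursor, and CDK5R1, a neuronal kinase activator, had mean signals at the 99.8th and 99.96th percentile of the array, and the design of the CDK5R1 probe set is one that can match several transcripts, so the assignment of both is uncertain. None of the 10 passed limma's test for the postpartum change.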

How the data were processed

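The authors deposited 1 table of linear signal intensity values for 22 arrays, which MAS5 had summarised, according to the submitters' processing notes. For its version and scaling target, and for a genome build, nothing is stated in the sources used here. Of 24128 probe sets, 112 controls were left out. Values were taken as log2(signal + 7.78), where 7.78 is the 20th percentile of an array (median of the 22), and the 14410 of 24016 bovine probe sets with a mean at or above the 40th percentile were tested. Fold changes on that scale understate the change of dim probe sets. There is no read depth, and precision is limited by the number of arrays.

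Probe sets were tested with limma 3.58.1 in R 4.3.3, with cows fitted as fixed blocks and variances moderated along the intensity trend. Values of p were adjusted over all tested probe sets by Benjamini-Hochberg, at 0.05. A gene was represented by its tested probe set with the highest mean. The cow number pairs the arrays, since the design describes sampling of the same animals. After removal of group means the 2 arrays of a cow correlated at 0.18 to 0.43 in 10 cows and at -0.09 in cow 387, which was kept. Names come from the array annotation, and all symbols of these genes matched the RefSeq table of ARS-UCD2.0. No sequences were used, and no location other than the chromosome of RPS4Y1. Scripts were tested on simulated data, and Python 3.11.15 with matplotlib 3.10.9 made the figures.

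Named genes were every called probe set, the 8 highest and 8 lowest estimates by representative (7 were below 0), a list of 31 well-known genes, of which 8 (RPLP1, RPS4X, RPS23, RPS25, RPS27A, RPL22L1, RPL36AL and RPL39L) had no probe set under their own single symbol and were not analysed here, called or most changed genes of the other translation lists, and the 10 most alike genes. The genes, the lists and the tests were chosen with earlier results of these data known. Correlations, list medians and counts are descriptions without a test.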

Additional observations from a re-analysis of the deposited data

How the results depend on the processing

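Under 31 alternatives, the count of ribosomal protein probe sets called was 1 or 0. It was 0 with 1 probe set a gene (1 at an unadjusted p under 0.05), without a filter (7), in array set 1 alone (4) or array set 2 alone (3), without cows 330, 331, 341 and 382 (2), and without cows 341 and 382 (4), all with limma. Leaving out 1 cow at a time gave 0 to 1, with median changes from 0.02 to 0.11 and 5 to 13 unadjusted. Without the replicate block that pairs the arrays of a cow, the count was 1 and the median 0.08. The 1 call was always the RPL32 probe set of middle brightness, which missed the threshold in 14 alternatives. The median change lay between -0.01 and 0.13. Its highest value, 0.128, came with cyclic loess normalization, under which 36 of 89 probe sets (40.4%) had an unadjusted p under 0.05, against 20.8% of all. The median change of all probe sets moved by no more than 0.02 under any normalization. Of 32 results for named genes, 19 changed sign in at least 1 alternative (58 of 896 values), and 0 called ones did. The fit without cows 341 and 382 and the fit with the GAPDH ratio were chosen after seeing the data, and those without cows 384 and 387 and without 4 cows with keratin transcripts were listed with earlier results known. Signals near background limit the 9 untested probe sets, and 11 cows limit the rest.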
